A study of Mus musculus with 2 samples.

Results

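Bcl2, Mcl1, Bcl2l1 (which encodes Bcl-xL), Bcl2l2 (Bcl-w) and the Bcl2a1 copies Bcl2a1a, Bcl2a1b and Bcl2a1d (A1) make up the pro-survival branch of the Bcl2 family in the mouse. These 7 genes were taken by gene symbol from the 34745 genes listed for 2 RNA-seq libraries, and all 7 were found. The libraries came from BM LSKs, which are lineage-negative cells that carry Sca1 and c-Kit and hold the hematopoietic stem and early progenitor cells. The donors were C57BL/6 mice with the Scl/tTA and BCR/ABL (BA) transgenes. The tetracycline transactivator was driven by Scl regulatory sequence, and BA was silent as long as doxycycline was given. The week-0 library, labelled as control, was from mice at the start of induction, and the week-3 library from mice after 3 weeks of induced BA expression. Mice at both time points carried both transgenes, and doxycycline had been withdrawn only in the week-3 mice, so BA expression and the absence of the drug cannot be told apart. Each library held LSKs of 3 mice mixed together. With 1 library per time point there was no spread between replicates, no test of the conditions was possible, and each comparison is between these 2 libraries.

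Pro-survival proteins of this family sit on the outer membrane of the mitochondrion and elsewhere, and bind the effectors Bax and Bak1 so that these do not open the membrane and release cytochrome c. BH3-only proteins, such as Bim (encoded by Bcl2l11), Puma (Bbc3) and Noxa (Pmaip1), are induced or released by stress and occupy the groove of the pro-survival proteins. Hematopoietic stem cells are known to depend on Mcl1, whose protein is short-lived, and Bcl2l1 is known as a survival gene of erythroid cells and platelets and as a target of STAT5 downstream of BA.

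Reads assigned to genes numbered 6356164 for the week-0 library against 3886695 for the other. Values are given as reads, as the FPKM of the deposited tables, or as RPM, the reads of a gene scaled to the total of its library, and ratios are week-3 over week-0 after scaling by total reads. The 95% intervals (exact Clopper-Pearson) cover counting error only and treat reads as independent. PCR copies of 1 cDNA molecule can be read more than once, so the intervals can be too narrow. The smallest level that 3 reads can show was 0.472 RPM at week-0 and 0.772 at week-3. Of 13689 genes with at least 10 reads over both libraries, 11.9% had a ratio of at least 2 and 17.9% a ratio of at most 0.5, and the median log2 ratio was 0.05. The c-Kit gene had 1391 and 580 reads and the Sca1 gene Ly6a 434 and 199, so both sorted markers were present, at ratios of 0.682 and 0.750. The 8 stem and progenitor markers went from a summed 1977 RPM at week-0 to 879 at week-3, and 7 of the 8 had an interval below a ratio of 1. Markers of other cells differed between the libraries. The 8 neutrophil markers, which include Mpo and Elane of early progenitors, went from a summed 2552 RPM at week-0 to 10382 at week-3, the 5 monocyte markers from 204 to 914, and the 7 mast cell or basophil markers from 141 to 3840. The 5 erythroid markers went from 902 to 66.1, the 5 plasma cell markers from 1100 to 245, the 7 B cell markers from 75.8 to 59.7, the 5 T cell markers from 5.35 to 2.32 and the 4 megakaryocyte markers from 144 to 205. Of the 4 megakaryocyte markers, however, 1 was higher at week-3 and 3 were lower, with a median log2 ratio of -0.41. Of the 5 B cell markers with at least 10 reads, 1 was higher and 4 were lower, with a median log2 ratio of -1.46. All 5 plasma cell markers were lower, with a median log2 ratio of -5.03. Cd79b held 49.4 and 55.6 RPM of the B cell sums, and Xbp1 229 and 215 RPM of the plasma cell sums. Cd3e, Cd8a and Irf4 had no reads at week-3. At 0 reads at week-0 was 1 mast cell gene, Tpsb2. In these bulk libraries, fewer cells of a type and less RNA per cell cannot be told apart, and the part of these cells in the values below was not tested.

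Mcl1, the most abundant of the 7 genes in both libraries, was lower at week-3. It lies on the plus strand of chromosome 3 of GRCm38, from 95658788 to 95663176. There were 2448 reads of Mcl1 in the week-0 library against 640 in the week-3 library, with FPKM values of 95.6 and 40.9. This was a log2 ratio of -1.23 (95% interval -1.35 to -1.10), or 2.34-fold lower. Its FPKM was above that of 96.0% of the genes tested here in the week-0 library and above 90.9% in the week-3 library. Mcl1 is also known as an early response gene, and its promoter is printed here because Mcl1 is the most abundant member. The 250 bases before the RefSeq start site on GRCm38.p6 (chr3:95658471-95658720, plus strand) are shown with matches to 6 motifs in capitals.
Mcl1 promoter: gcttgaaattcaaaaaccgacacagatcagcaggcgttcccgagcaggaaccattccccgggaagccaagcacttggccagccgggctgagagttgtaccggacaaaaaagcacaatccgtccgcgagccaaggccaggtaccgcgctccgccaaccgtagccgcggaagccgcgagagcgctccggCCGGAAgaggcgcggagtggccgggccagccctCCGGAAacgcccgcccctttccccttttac
The capitals mark 2 matches to CCGGAA, the core bound by ETS factors, at positions -63 and -30 from the start site. This core was found in 12.03% of 32841 promoter windows of the same length, on either strand. The other motifs searched on both strands, TTCNNNGAA for STAT factors, TGACG as the CRE core, TGACTCA or TGAGTCA for AP-1, the CArG box and the NF-kappaB motif, had no match in this window.

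Bcl2 and Bcl2l1 were higher at week-3 by less than 2-fold and by similar ratios. Bcl2, on the minus strand of chromosome 1 from 106538178 to 106714274, had 437 and 407 reads and an FPKM of 6.85 and 10.4. The ratio was 1.52 (95% interval 1.33 to 1.75), or 0.61 on the log2 scale. An antisense gene, D630008O14Rik, overlaps 6.09% of the Bcl2 exons and had 1 read and 4 reads. Bcl2l1, on the minus strand of chromosome 2 from 152780668 to 152831728, was read 280 and 249 times. Its FPKM was 3.70 and 5.38, a ratio of 1.45 (95% interval 1.22 to 1.73). The reads of Bcl2 relative to those of Bcl2l1 were 1.56 at week-0 and 1.63 at week-3, a change of 1.05 times (exact conditional 95% interval 0.837 to 1.31). No difference between these genes in their change was therefore detectable at this depth, and the interval leaves room for a difference of up to 1.31 times. The Bcl2 promoter is shown for comparison with that of Mcl1 (chr1:106714291-106714540 of GRCm38.p6, minus strand, 250 bases before the start site).
Bcl2 promoter: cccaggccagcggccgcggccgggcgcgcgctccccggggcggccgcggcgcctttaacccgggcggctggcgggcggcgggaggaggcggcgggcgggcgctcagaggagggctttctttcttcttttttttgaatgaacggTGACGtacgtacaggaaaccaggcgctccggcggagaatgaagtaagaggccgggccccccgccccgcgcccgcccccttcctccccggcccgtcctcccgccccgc
The capitals mark 1 match to TGACG, at position -107, and no other motif of the 6 was matched. TGACG was found in 17.8% of all promoter windows. In this window 74.8% of the bases were G or C, against 64.4% in that of Mcl1.

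Bcl2l2 had the largest ratio of the 7 genes from a low level. It lies on the plus strand of chromosome 14, from 54883377 to 54888234. Only 18 reads of Bcl2l2 were counted in the week-0 library against 49 in the week-3 library, and its FPKM was 0.344 and 1.53. The ratio was 4.45 with a 95% interval from 2.55 to 8.12, a log2 ratio of 2.15. Of its merged exons, 13.3% also lie in exons of Gm20521 on the same strand, a gene listed at 0 reads in both libraries, and how the counting treated reads in these shared bases is not given in the sources used here. With 1 added to each FPKM the log2 ratio of Bcl2l2 was 0.91.

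The Bcl2a1 copies, which encode the NF-kappaB target A1 of myeloid and lymphoid cells, had few reads, and fewer at week-3. Bcl2a1d, on the minus strand of chromosome 9 from 88723285 to 88731914, was read 28 and 6 times, with an FPKM of 5.10 and 1.79. Its ratio was 0.350 (95% interval 0.119 to 0.863). Bcl2a1b, on the plus strand from 89199209 to 89207827, had 8 reads and 1 read, with an interval of the ratio from 0.00461 to 1.52 that includes no change. Bcl2a1a, on the plus strand from 88956900 to 88962419, had 2 reads and 0 reads, both under the limit of 3 reads, so no ratio is given. Summed over the 3 copies, 38 reads stood against 7, a log2 ratio of -1.73 (95% interval -3.14 to -0.55), or 3.32-fold lower.

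The split of reads among these copies is uncertain, because their sequences are nearly the same. The first 60 coding bases of each, from GENCODE M21 transcripts, are shown because they hold several of the bases by which a read can be assigned. They lie in coding exon at chr9:88957051-88957110 (Bcl2a1a, plus strand), chr9:89199360-89199419 (Bcl2a1b, plus strand) and chr9:88731660-88731719 (Bcl2a1d, minus strand) of GRCm38.
Bcl2a1a: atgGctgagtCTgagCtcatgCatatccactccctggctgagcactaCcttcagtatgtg
Bcl2a1b: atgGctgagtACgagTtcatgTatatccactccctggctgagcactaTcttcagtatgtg
Bcl2a1d: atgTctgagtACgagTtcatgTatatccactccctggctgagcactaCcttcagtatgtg
The capitals mark the 6 positions at which the 3 copies are not all the same. Over the 516 coding bases, Bcl2a1a and Bcl2a1d differed at 7 bases (98.6% identity), Bcl2a1b and Bcl2a1d at 6 (98.8%), and Bcl2a1a and Bcl2a1b at 11 (97.9%). Of all stretches of 100 bases, the length of a read, 43.5% of those in the Bcl2a1a transcript, 31.1% in Bcl2a1b and 54.7% in Bcl2a1d occurred unchanged in another Bcl2a1 transcript, Bcl2a1c included. Within 2 mismatches, the number that the mapping allowed, the shares were 89.2%, 98.6% and 92.9%. Bcl2a1b also shares 49.1% of its exon bases with Gm29094 on the same strand, a gene listed at 0 reads in both libraries.

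**Figure D1:**
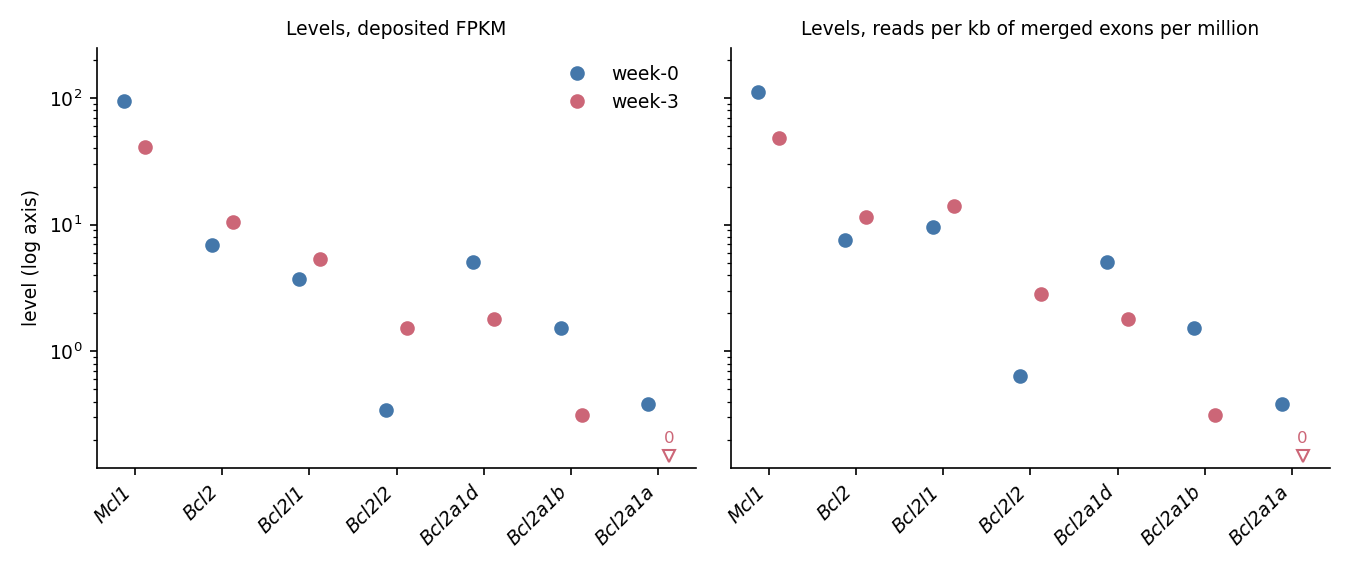
Level of the 7 genes in the week-0 (blue) and week-3 (red) libraries, on a log axis, as the deposited FPKM (left) and as RPM per kilobase of merged exons (right). Each point is 1 library, the open triangle marks Bcl2a1a at 0, and Mcl1 is highest in both libraries on both scales.

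Read together, 1 of the 5 members with at least 10 reads (Bcl2l2) had a ratio of at least 2, and 2 of the 5 (Mcl1 and Bcl2a1d) had a ratio of at most 0.5. Over all genes tested, the shares past these limits were 11.9% and 17.9%. The counting interval lay above a ratio of 1 for 3 of the 5 members (Bcl2, Bcl2l1 and Bcl2l2) and below it for 2 (Mcl1 and Bcl2a1d), where 31.7% of all genes lay above and 27.3% below. At a limit of 1.5-fold, 2 members (Bcl2 and Bcl2l2) were higher and 2 (Mcl1 and Bcl2a1d) lower, where 24.6% and 26.8% of all genes passed. The remaining 2 members, Bcl2a1a and Bcl2a1b, had fewer than 10 reads. The median log2 ratio of the 5 members was 0.54, beside 0.05 over all genes. With so few members, these shares show that the members moved both ways and do not set the group apart from other genes.

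**Figure D2:**
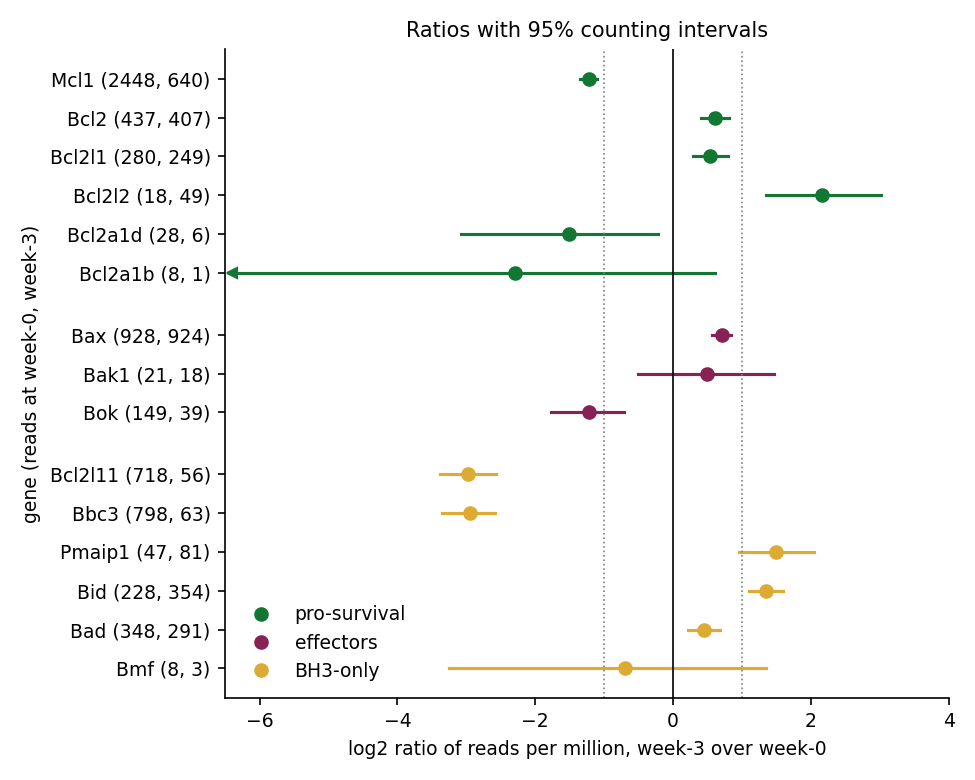
Log2 ratio of RPM, week-3 over week-0, for the pro-survival genes (green), the effectors (purple) and the BH3-only genes (yellow) with reads in both libraries. Points are ratios, lines are 95% counting intervals, dotted lines mark 2-fold, an arrow marks an interval that runs on, and Mcl1 lies to the left of zero while Bcl2, Bcl2l1 and Bcl2l2 lie to the right.

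The family as a whole was lower at week-3, and this rested on Mcl1. Summed reads of the 7 genes were 3221 and 1352, or 507 and 348 RPM, a ratio of 0.686 (95% interval 0.644 to 0.732). Without Mcl1, the other 6 genes had 773 and 712 reads, or 122 and 183 RPM, a ratio of 1.51 (95% interval 1.36 to 1.67). Per length the difference was smaller, with a summed FPKM of these 6 genes of 17.9 and 19.5 and a sum per kilobase of merged exons of 24.8 and 30.3, since reads give more weight to long transcripts. The summed FPKM of all 7 genes was 114 and 60.3. The make-up of the family differed accordingly. Mcl1 made up 84.2% of the summed FPKM of the 7 genes at week-0 and 67.8% at week-3. Bcl2 made up 6.04% and 17.3%, Bcl2l1 3.26% and 8.92%, and Bcl2l2 0.303% and 2.54%. The share of Bcl2a1d was 4.50% and 2.96%. In each library Mcl1 therefore held most of the summed level, and the shares of Bcl2, Bcl2l1 and Bcl2l2 were higher at week-3.

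Ratios of reads between members do not depend on how the libraries are scaled. There were 0.179 reads of Bcl2 per read of Mcl1 at week-0 and 0.636 at week-3, a change of 3.56 times (exact conditional 95% interval 3.02 to 4.20). The reads of Bcl2l1 per read of Mcl1 changed by 3.40 times (2.79 to 4.14), from 0.114 to 0.389. Those of Bcl2l2 changed by 10.4 times (5.90 to 19.1). For Bcl2a1d the change was 0.820 times with an interval from 0.276 to 2.03, so that no difference between its change and that of Mcl1 was detectable.

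Levels of different genes can be compared only per length, and the length behind the deposited FPKM was not that of the merged exons for every gene. Computed from reads and FPKM, it was 10032 bases for Bcl2, 4028 for Mcl1, 11905 for Bcl2l1 and 8238 for Bcl2l2, where the merged exons in GENCODE M21 span 9157, 3418, 4586 and 4462 bases. The Bcl2a1 copies, with 1 transcript each, had the same length both ways, 863 bases for Bcl2a1d. Among 9876 genes with more than 1 transcript, the length behind the FPKM was a median of 1.30 times that of the merged exons. On RPM per kilobase of merged exons, Mcl1 was at 113 at week-0 and 48.2 at week-3, Bcl2 at 7.51 and 11.4, Bcl2l1 at 9.61 and 14.0, and Bcl2l2 at 0.635 and 2.83. On this scale Bcl2l1 was above Bcl2 in both libraries, whereas the deposited FPKM put Bcl2 first. The order of these genes thus depends on the length used. Mcl1 was first on both scales, and its share of the 7 genes was 82.0% at week-0 and 61.4% at week-3.

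**Figure D3:**
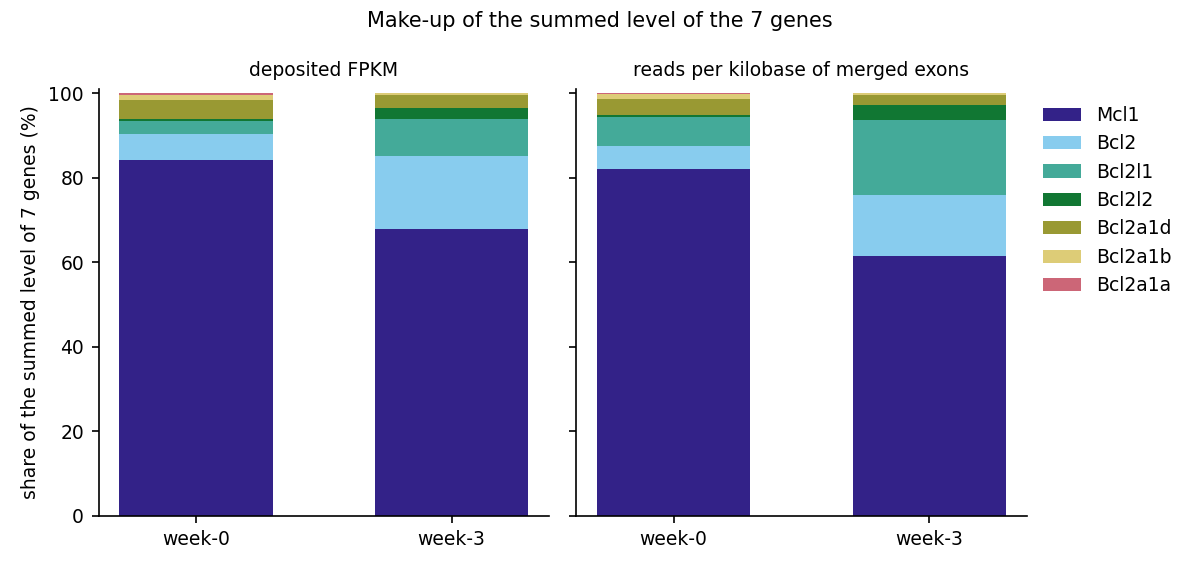
Share of each gene in the summed level of the 7 genes, in percent, at week-0 and week-3, from the deposited FPKM (left) and from reads per kilobase of merged exons (right). The Mcl1 share is 84.2% and 67.8% on the left and 82.0% and 61.4% on the right.

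Among 8817 genes with at least 100 reads over both libraries, those nearest to Mcl1 in the plane of log2 FPKM at week-0 and week-3 were Arl6ip5 (84.2 and 41.6), H1f0 (83.7 and 42.4) and Crip1 (111 and 38.5), at distances of 0.18, 0.20 and 0.24. Those nearest to Bcl2 were D10Jhu81e (6.69 and 10.6), Hnrnph3 (6.83 and 10.1) and Smarca5 (7.08 and 10.5), all within 0.05. The likeness is over 2 libraries only.

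**Figure D4:**
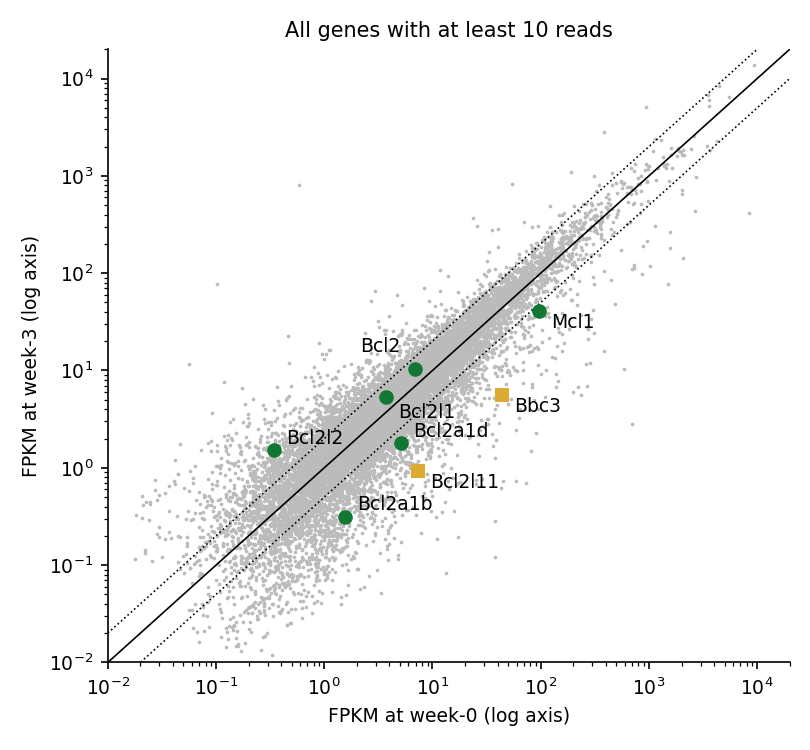
FPKM at week-0 against FPKM at week-3 on log axes, with each grey point a gene that had at least 10 reads in all and reads in both libraries. The solid line is equality and dotted lines are 2-fold, green circles are the pro-survival genes (Bcl2a1b with 9 reads included), yellow squares are Bcl2l11 and Bbc3, and Mcl1 and both squares lie below the lower dotted line.

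Some of the effector and BH3-only genes also differed between the libraries. Of the effectors, which form the pore in the outer membrane, Bax had 928 and 924 reads, a ratio of 1.63 (95% interval 1.48 to 1.79). Exons of Gm45808 on the same strand cover 12.2% of those of Bax. Bok had 149 and 39 reads, a ratio of 0.428 (0.293 to 0.613). Bak1 had 21 and 18 reads, and its interval from 0.704 to 2.76 includes no change. Exons of Ggnbp1 on the other strand cover 18.2% of those of Bak1 in 1 annotated copy, and whether the counting used strand is not given in the sources used here.

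Of the 8 BH3-only genes, 6 had at least 10 reads, and 2 of these had a ratio of at least 2 and 2 a ratio of at most 0.5. Over all genes tested, the shares past these limits were 11.9% and 17.9%. Bcl2l11, whose protein Bim binds every pro-survival member, went from 718 to 56 reads, and was 7.84-fold lower at week-3 (log2 ratio -2.97, 95% interval -3.39 to -2.58). Bbc3, whose protein Puma does so as well, went from 798 to 63 reads and was 7.75-fold lower (log2 ratio -2.95, interval -3.35 to -2.58). In the opposite direction, Pmaip1, whose protein Noxa binds mainly Mcl1 and A1, had 47 and 81 reads, a ratio of 2.82 (1.94 to 4.13). Bid, which is activated by cleavage, had 228 and 354 reads, a ratio of 2.54 (2.14 to 3.01), and 17.7% of its exon bases overlap those of Bcl2l13 on the other strand. Bad, which binds Bcl2, Bcl-xL and Bcl-w, had 348 and 291 reads, a ratio of 1.37 (1.17 to 1.60), and 20.5% of its exon bases overlap Gpr137. Bmf had 8 and 3 reads and an interval from 0.105 to 2.56, and Bik and Hrk were listed at 0.

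Set against Bax and some of the BH3-only genes, the members differed from each other. There were 0.609 reads of Bcl2 per read of Bcl2l11 at week-0 and 7.27 at week-3, a change of 11.9 times (exact conditional 95% interval 8.76 to 16.5). The reads of Mcl1 per read of Bcl2l11 changed by 3.35 times (2.51 to 4.54), from 3.41 to 11.4. Against Pmaip1 the direction was the other way, with 52.1 reads of Mcl1 per read of Pmaip1 at week-0 and 7.90 at week-3, or 6.59-fold lower (4.49 to 9.75). Bcl2 was lower against Pmaip1 too, from 9.30 reads per read of Pmaip1 to 5.02, or 1.85-fold lower (1.24 to 2.78). Against Bid, Mcl1 was 5.94-fold lower (4.90 to 7.20) and Bcl2 1.67-fold lower (1.34 to 2.08). Against Bbc3, Mcl1 was 3.31 times higher (2.52 to 4.41) and Bcl2 11.8 times higher (8.77 to 16.0). Mcl1 per read of Bax was 3.81-fold lower (3.35 to 4.33). For Bcl2 per read of Bax the change was 0.935 times with an interval from 0.792 to 1.10, so no change was detectable. Reads compare these genes between the libraries and are not levels per length.

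None of the 3 other Bcl2-like genes with at least 10 reads was past 2-fold, where 11.9% of all genes were past it upward and 17.9% downward. Bcl2l13, a mitochondrial protein, had 297 and 94 reads, a ratio of 0.518 (0.406 to 0.655), and 6.91% of its exon bases overlap those of Bid. Bcl2l12 had 83 and 56 reads and Bcl2l14 had 16 and 10, with intervals of the ratio from 0.772 to 1.57 and from 0.415 to 2.40. On the other strand, Gm15545 covers 28.9% and Irf3 4.45% of the Bcl2l12 exon bases, and 4933406J09Rik covers 14.1% of those of Bcl2l14. Bcl2l15 had 7 reads and 0 reads, and the interval of its ratio, from 0 to 1.13, includes no change. Bcl2l10 was listed at 0 in both libraries.

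Genes that act before and after the Bcl2 family were followed as lists. A list of 10 genes held caspases and genes that act with them or inhibit them, and was not limited to steps after the mitochondrion. Of these 10 genes, 1 (Casp9, 29 and 36 reads) had a ratio of at least 2 and none a ratio of at most 0.5. The median log2 ratio of this list was 0.19. Cytochrome c (Cycs) had the highest ratio of those with at least 100 reads, 1.92, followed by Xiap at 1.73, and the lowest was Diablo at 0.712. Of 15 survival receptors and kinases, 2 had a ratio of at least 2 and 3 a ratio of at most 0.5, with a median of -0.44. These counts are near the shares over all genes, 11.9% and 17.9%, and do not set the list apart. The receptor chains Csf2rb and Csf2rb2, which carry IL-3 signals, were 3.65-fold and 2.27-fold higher, while the receptor Flt3 was 4.04-fold lower. Stat5b, which carries cytokine receptor signals, was also past the lower limit, at 2.40-fold lower.

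All 8 genes of the NF-kappaB list were lower at week-3, with intervals below a ratio of 1, and 7 of them had a ratio of at most 0.5. Over all genes tested, 27.3% had such an interval and 17.9% such a ratio. The median log2 ratio of the list was -2.28. Nfkb1 (1.79-fold lower) and Rel (2.83-fold lower) had the highest ratios and Relb (6.26-fold lower) and Tnfaip3 (19.2-fold lower) the lowest. The Bcl2a1 copies are known targets of this pathway, and their summed reads were 3.32-fold lower, with few reads behind that value. The NF-kappaB motif had no match in the 250-base promoter windows of these copies. Of the Bcl2l1 windows, 1 had a match, at position -242, and the others had none. This motif was found in 3.90% of all promoter windows. Whether the NF-kappaB genes and these members are linked was not tested. Of the 8 genes that act on the turnover of Mcl1 protein, 6 had at least 10 reads, with a median log2 ratio of 0.18. None of these was past 2-fold, where 11.9% of all genes were past it upward and 17.9% downward. Btrc and Gsk3b were at ratios of 1.29 and 1.28, the deubiquitinase Usp9x at 0.829 and the ubiquitin ligase Huwe1 at 0.645.

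Of 20 immediate-early genes, 17 had a ratio of at most 0.5 (all but Fos, Ier3 and Myc) and none a ratio of at least 2. Over all genes tested, the shares past these limits were 17.9% and 11.9%. The median log2 ratio of the list was -1.66. In all, 4.45% of the week-0 reads and 1.29% of the week-3 reads came from this list. Fos was 1.73-fold lower and Myc 1.47-fold higher, the highest ratios of the list, and Nr4a1 and Atf3 were 14.3-fold and 57.5-fold lower. Mcl1 was lower in the same library as these genes, and the part of a stress or handling response in its level was not tested. Leaving these genes out of the totals shifted every log2 ratio by -0.05.

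**Figure D5:**
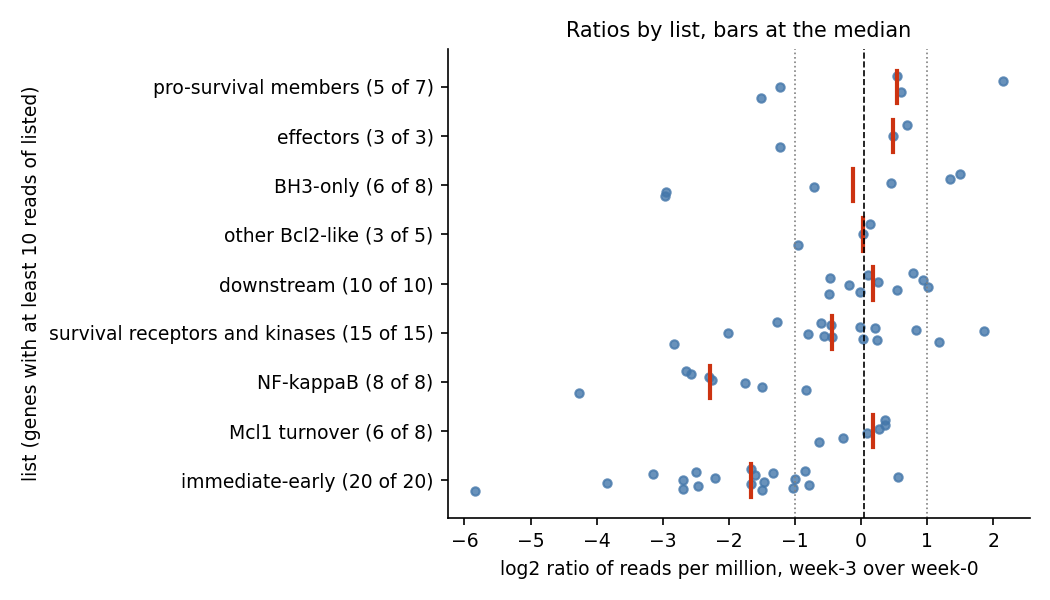
Log2 ratio of RPM, week-3 over week-0, for each gene with at least 10 reads and reads in both libraries in the pro-survival group and the 8 other lists, with red bars at list medians, a dashed line at the median of all genes (0.05) and dotted lines at 2-fold. The NF-kappaB and immediate-early lists lie mostly below the lower dotted line, and Egr3, with no reads at week-3, is not drawn.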

How the data were processed

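Sorted BM LSKs gave 1 RNA-seq library per time point. The authors made cDNA by SMARTer chemistry for low input, trimmed the paired reads of 100 bases and mapped them to GRCm38 with TopHat 2.0.9. Per the file headers, the deposited tables hold counts, which are whole numbers of reads per gene without normalization. They also hold FPKM, which the authors scaled by gene length and library size. The counting tool, its strand setting and the annotation release are not given in the sources used here. FPKM ratios between libraries equalled those of RPM, within 0.99997 and 1.00003 for 9762 genes.

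The tables were joined by Ensembl identifier, and 34267 of 34745 genes were found in GENCODE M21, used for strand, exons and transcripts. Promoter sequences are from RefSeq (GRCm38.p6), where all 7 members were found. Where symbols were repeated, the identifier with more reads was used.

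The members and lists were chosen with earlier results of these data known. Named genes were every member, every effector, BH3-only and other Bcl2-like gene, and the 2 highest and 2 lowest genes with at least 100 reads of each other list. The 3 genes nearest to Bcl2 and to Mcl1 were also named. Some genes that this rule names are not reported here. The pairs of members and partners set against each other were chosen after their values were seen. Ratios used the counts of each gene and the total reads over all genes listed. Counts of genes past a limit used those with at least 10 reads over both libraries, and no p-value is given. Alternatives used TMM and the exact test of edgeR 4.0.16, size factors of DESeq2 1.42.0, pseudocounts, other limits and other lengths. The interval, edgeR and motif steps were tested on simulated data. Python 3.11.15, scipy 1.17.1, numpy 2.4.6, pandas 2.3.3, matplotlib 3.10.9 and R 4.3.3 were used.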

Additional observations from a re-analysis of the deposited data

How the results depend on the processing

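No paired analysis was possible because each time point has 1 library, and for the same reason no library could be left out. Of 113 alternative values, 82 stayed within the counting interval or the stated limit, 31 moved and 0 changed the direction of a called value. TMM, median-of-ratios scaling and leaving the 20 immediate-early genes out of the totals shifted every log2 ratio by -0.08, -0.07 and -0.05. They moved only the median of the other Bcl2-like genes, from 0.032 to -0.047, -0.035 and -0.015. The last of these, and lengths of merged exons, were chosen after seeing the data.

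With a pseudocount of 1, the log2 ratio of Bcl2l2 was 0.91. At a limit of 1.5-fold, 2 members were higher. With a filter of at least 1 read in each library, or of an FPKM of at least 1 in either, 6 members were kept, and 3 of the 6 were at least 2-fold lower, Bcl2a1b with 9 reads being the added gene. In edgeR's exact test at a q-value under 0.05 and past 2-fold, with an assumed biological coefficient of variation of 0.1, 1 member was higher and 2 lower, and with 0.4 the counts were 0 and 0. These tests compare the libraries, not the conditions.

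Relative to Bcl2l1 in place of Mcl1, the log2 change was 0.067 for Bcl2, 1.61 for Bcl2l2 and -2.05 for Bcl2a1d. Shares moved most, as each scale weighs length differently. As shares of reads at week-0 and week-3, Mcl1 was at 76.0% and 47.3%, Bcl2 at 13.6% and 30.1% and Bcl2l1 at 8.69% and 18.4%. On that scale Bcl2a1d was at 0.869% and 0.444%, Bcl2a1b at 0.248% and 0.0740%, Bcl2a1a at 0.0621% at week-0 and Bcl2l2 at 3.62% at week-3. By merged exons, Mcl1 was at 82.0% and 61.4%, Bcl2l1 at 6.99% and 17.8% and Bcl2a1d at 3.71% and 2.28%. On this scale Bcl2 was at 14.6% and Bcl2l2 at 3.60% at week-3, and Bcl2a1b at 1.12% at week-0. On all 3 scales the share of Mcl1 was lower at week-3.

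Depth limits the Bcl2a1 copies most, since Bcl2a1a and Bcl2a1b had 2 and 8 reads at week-0.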
